A study of Mus musculus with 2 samples.

Results

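The 59 genes described here encode the Golgi enzymes that build the sugar chains of mucins and of proteins and lipids at the cell surface. They are all the genes of the table whose symbol begins with Galnt, B3gnt, B4galt, B3galt, St3gal, St6gal, Fut, Gcnt, Chst, Mgat or C1galt and goes on with a digit or letter. The table held 13373 genes in all. Their expression was followed in single cells of mouse intestinal organoids, in a library of DBZ-treated Apc mutant organoids and a library of DMSO-treated Apc mutant organoids. DBZ inhibits gamma-secretase, the protease that frees the signalling part of Notch receptors, and DMSO is the vehicle. Both libraries carry the same labels otherwise. These are strain C57Bl, an age of 3 to 4 months, mutant Apc, and a treatment text that lists 300 nM 4-OH-tam with 10 uM DBZ for each of them. Apc restrains Wnt signalling, and no source used here gives the allele, the intestinal segment or the number of animals. The question put to the data is what the inhibitor changes in cells of these mutant organoids relative to vehicle. Each treatment has 1 library. Differences therefore lack a replicate check, and every statement below compares these libraries.

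Mucin-type O-glycans start when a polypeptide GalNAc-transferase puts a sugar, N-acetylgalactosamine, on a serine or threonine. Galactosyl-, GlcNAc-, sialyl-, fucosyl- and sulfotransferases then extend, branch and cap that chain, and other members of the same families do so on N-glycans, glycolipids and proteoglycans. In the intestine, goblet cells carry such chains on secreted mucins, and every epithelial cell carries them on its surface glycoproteins.

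The DBZ library held 1241 cells and 16168229 UMIs (unique molecular identifiers, a count of transcript molecules), and the DMSO library held 968 cells and 13083018 UMIs. Median cells had 10901 UMIs with DBZ and 11183 with DMSO. Of 12 intestinal stem cell markers, 11 had UMIs in 10% or more of a library's cells. Their log2 changes with DBZ lay above 0 for 4 and below 0 for 7, with a median of -0.29. Rnf43 (0.79) and Znrf3 (0.65) were higher by 0.5, against 12.7% of all genes. Igfbp4 (-1.85), Smoc2 (-1.24) and Cdca7 (-1.22) were lower by 0.5, against 6.4% of all genes. Fibroblast, immune and endothelial marker lists had 2 of 8, 1 of 8 and 1 of 7 genes in the table. Vim, which fibroblasts also express, averaged 5.73 UMIs per 10000 with DBZ and 11.7 with DMSO. Secretory marker lists had 16 Paneth, 24 enteroendocrine and 9 goblet genes in the table. Only those with UMIs in 10% or more of a library's cells were counted. Of these, 11 of 12 Paneth, 11 of 11 enteroendocrine and 4 of 5 goblet genes were higher with DBZ by 0.5 in log2. Of all genes seen that widely, 12.7% were. Medians were 2.35, 1.62 and 1.495 in the same order. Several passed only through DBZ, so these had to differ. Examples are Gip (13.9% of DBZ cells and 0% of DMSO cells), Chga (18.2% and 4.13%) and Ang4 (20.6% and 4.75%). The exceptions among the counted genes were the Paneth gene Itln1 at 0.22 and the goblet gene Clca3b at -0.46. Of the rarer Paneth genes, Mptx1 was lower, with 33 UMIs with DBZ and 136 with DMSO (log2 change -1.16). The rarer Defa23, Defa26 and Habp2 had more UMIs with DBZ. Lists of mitotic and DNA replication genes were lower, with medians of -0.51 over 15 genes and -0.59 over 14. Both libraries shared 3 cell barcodes.

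The level of a gene is its number of UMIs per 10000 of a cell, averaged over the cells of a library and not divided by transcript length. A change is log2 of the DBZ level over the DMSO level after adding 0.05 to each, which pulls the changes of low genes towards 0. Pooled UMIs of all cells give a second log2 ratio with an exact 95% interval that covers counting error only. A gene is called higher or lower where the change reaches 0.5 in size, with no test. Of the 59 genes, 31 had UMIs in 10% or more of the cells of the DBZ or DMSO library. Another 22 were rarer but had UMIs in both libraries, and 6 were listed at 0 in every cell of a library.

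Of the 31, 2 were higher with DBZ by at least 0.5, the sialyltransferase gene St3gal1 and the GalNAc-transferase gene Galnt4, against 12.7% of all 8797 genes seen that widely. Galnt6 alone was lower by that much, against 6.4% of all genes. Changes lay above 0 for 21 of the 31 and below 0 for 10, where 63.2% of all genes lay above 0. The counts of calls moved with the scale. Pooled UMIs put 6 higher and 2 lower, with 19.1% and 8.82% of all genes, and thinning every cell to 5000 UMIs put 7 higher and 2 lower, with 13.7% and 6.82% of all genes. A smaller addition of 0.01 put 4 higher and 2 lower, with 17.4% and 8.03% of all genes. The median change was 0.18, and that of all genes was 0.11. Counting intervals lay wholly above 0 for 17 of the 31 (43.4% of all genes) and wholly below 0 for 4 (23.4% of all genes). Summed over all 59 genes, a cell averaged 9.02 UMIs per 10000 with DBZ and 8.06 with DMSO, a pooled log2 ratio of 0.17 (0.13 to 0.20). Leaving out the Paneth-like and enteroendocrine-like clusters described below gave a median of 0.23, with St3gal1 at 1.29 and Galnt6 at -1.06. The filter let 5 genes in through 1 library alone, St3gal1, B4galt4 and B4galt5 through DBZ and Galnt6 and Galnt12 through DMSO, so these had to differ. Among the 26 genes seen in 10% of the cells of both libraries, 18 lay above 0, 1 was higher by 0.5 and 0 were lower, with 63.3%, 10.6% and 5.17% of all genes. Just inside the threshold stood Galnt4 at 0.51. Just outside it stood Galnt1 and B4galt5, which miss 0.5 only after the second decimal, and Galnt12 at -0.49.

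**Figure D1:**
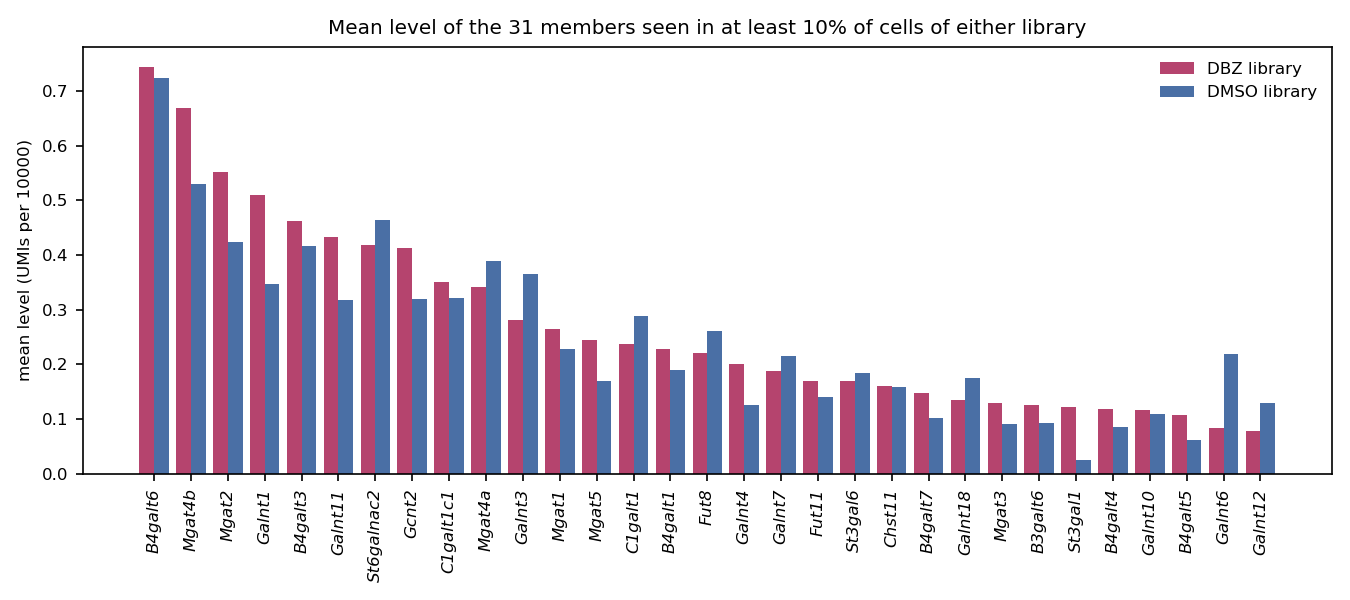
Mean level, in UMIs per 10000, of the 31 genes with UMIs in 10% or more of a library's cells, in the DBZ library (left bar of each pair) and the DMSO library (right bar), ordered by the DBZ level. Each bar is the mean over the cells of 1 library, so no error bar is drawn. B4galt6 is the tallest pair at 0.744 with DBZ and 0.725 with DMSO, and the pairs of St3gal1 and Galnt6 differ most, in opposite directions.

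The GalNAc-transferases that start mucin-type chains showed both directions. Of 10 Galnt genes in the table, 9 passed the filter on cells, with 4 changes above 0 and 5 below. Their median was -0.15. Galnt6 and Galnt12 passed only through DMSO, so these had to differ. Among Galnt genes in 10% of the cells of both libraries the median was 0.06, and over all 10 it was -0.05. The sum of all 10 was almost the same in both libraries, at 2.05 UMIs per 10000 with DBZ and 2.00 with DMSO. The pooled log2 ratio of that sum was 0.03 (-0.05 to 0.10).

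Galnt6 (chromosome 15, 100691813 to 100729376, minus strand) had the lowest change of the 31. Its level was 0.0837 UMIs per 10000 with DBZ and 0.219 with DMSO, a change of -1.01. Pooled counts were 138 UMIs in DBZ cells and 283 in DMSO cells, a log2 ratio of -1.34 (-1.65 to -1.04). UMIs of Galnt6 were found in 9.67% of cells with DBZ and 23.7% with DMSO, and in 3.63% and 10.6% of the same cells after each was thinned to 5000 UMIs. The antisense gene Galnt6os overlaps 441 of its exonic bases on the opposite strand, and no source used here says whether counting used strand.

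Galnt12 (chromosome 4, 47091909 to 47123070, plus strand), whose human counterpart is linked to inherited colorectal cancer risk, lay just short of the threshold. It averaged 0.0781 UMIs per 10000 with DBZ and 0.130 with DMSO, from 128 UMIs and 173 UMIs, a pooled log2 ratio of -0.74 (-1.08 to -0.40). Galnt3, which in bone protects the hormone FGF23 from cleavage, averaged 0.282 with DBZ and 0.366 with DMSO, a change of -0.33 and a pooled ratio of -0.36 (-0.55 to -0.18). For Galnt18, at 0.136 with DBZ and 0.175 with DMSO (change -0.28), and Galnt7, at 0.188 and 0.215 in the same order (change -0.15), the counting intervals included 0. Galnt7 encodes an enzyme that prefers substrates that already carry a GalNAc.

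Galnt4, Galnt1 and Galnt11 made up the other side. Galnt4 (chromosome 10, 99108159 to 99113247, plus strand), also a transferase that acts on partly glycosylated peptides, averaged 0.201 UMIs per 10000 with DBZ and 0.126 with DMSO, a change of 0.51. That call was lost under both alternative scalings, which gave 0.49 and 0.41, and with an addition of 0.2 (0.30). From 346 DBZ UMIs and 159 DMSO UMIs its pooled ratio was 0.82 (0.54 to 1.10). It shares 420 exonic bases on the same strand with Poc1b, a centriole gene that is also in the table, so reads there could come from either gene. Galnt1, a broadly expressed initiating enzyme, averaged 0.510 with DBZ and 0.346 with DMSO, and its change of 0.50 came with a pooled ratio of 0.52 (0.36 to 0.69). Galnt11, whose product glycosylates NOTCH1 in human cells, averaged 0.433 with DBZ and 0.318 with DMSO, a change of 0.39 and a pooled ratio of 0.36 (0.18 to 0.55). Galnt10 had a change of 0.06, which turned negative under both alternative scalings.

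With a near-equal sum, the make-up of the Galnt transcripts differed between the libraries. Galnt1 took 25.2% of Galnt UMIs with DBZ (exact 95% interval 23.7 to 26.7) and 17.8% with DMSO (16.4 to 19.3). Galnt6 took 4.16% with DBZ (3.50 to 4.89) and 10.7% with DMSO (9.57 to 12.0). Galnt3 held the largest Galnt share in the DMSO library, 19.3%, and took 14.8% in the DBZ library. Without the Paneth-like and enteroendocrine-like clusters described below, Galnt1 took 24.8% with DBZ and 17.9% with DMSO, and Galnt6 took 3.86% with DBZ and 10.5% with DMSO.

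**Figure D2:**
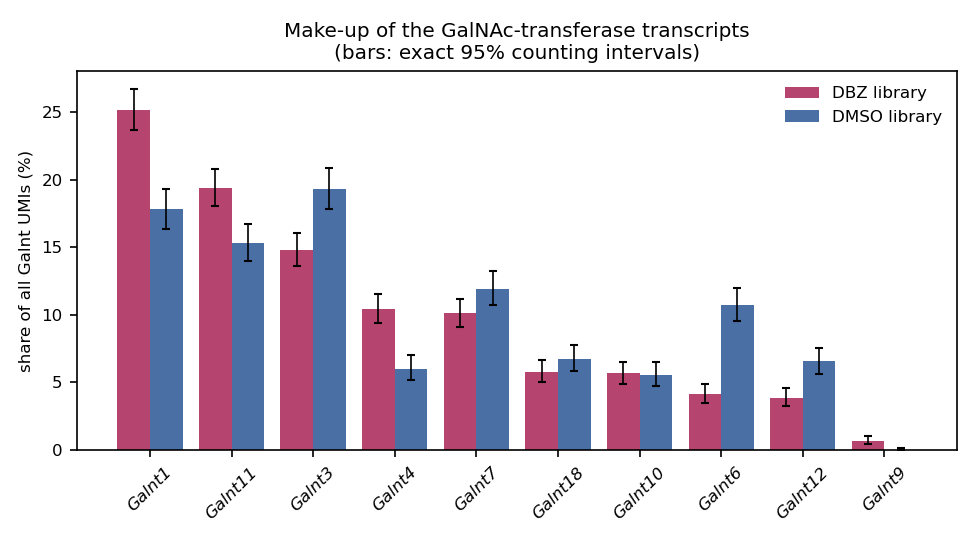
Share of all Galnt UMIs, in percent, taken by each of the 10 Galnt genes in the DBZ library (left bar) and the DMSO library (right bar), with exact 95% binomial intervals that cover counting error only. Galnt1, Galnt11 and Galnt4 hold larger shares with DBZ (25.2%, 19.4% and 10.4%), and Galnt3, Galnt6 and Galnt12 hold larger shares with DMSO (19.3%, 10.7% and 6.56%).

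Promoters are shown for Galnt6 and Galnt3, the members with the lowest changes that have an entry in the RefSeq promoter table (build GRCm38.p6), which holds 21 of the 31. Each window runs from 250 bases before to 50 bases after the annotated start, 5′ to 3′ on the gene's strand. The motifs searched, on both strands, were the HES N-box CACNAG, the HES class C site CACGNG, the RBPJ core TGGGAA and the AP-1 site TGANTCA. Capitals mark each match.
Galnt6, chr15:100729327-100729626, minus strand: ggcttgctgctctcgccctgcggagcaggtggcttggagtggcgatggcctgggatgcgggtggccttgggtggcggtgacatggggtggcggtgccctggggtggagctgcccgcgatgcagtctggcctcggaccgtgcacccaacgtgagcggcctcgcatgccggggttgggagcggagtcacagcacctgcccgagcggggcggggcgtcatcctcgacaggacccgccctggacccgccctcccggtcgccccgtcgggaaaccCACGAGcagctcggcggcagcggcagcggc
Galnt3, chr2:66124744-66125043, minus strand: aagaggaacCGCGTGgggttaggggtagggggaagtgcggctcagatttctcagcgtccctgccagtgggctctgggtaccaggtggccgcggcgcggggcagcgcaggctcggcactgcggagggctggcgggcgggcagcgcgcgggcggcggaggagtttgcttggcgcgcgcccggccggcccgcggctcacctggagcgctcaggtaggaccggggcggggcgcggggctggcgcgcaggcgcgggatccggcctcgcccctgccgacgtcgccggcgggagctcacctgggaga
In Galnt6, the capitals CACGAG, 271 bases from the start of the window, match the N-box and the class C site at the same letters. In Galnt3, the capitals CGCGTG, 10 bases from the start of the window, are a class C site on the reverse strand. Among 32851 promoters of the same length, 42.5% held CACNAG, 27.5% CACGNG, 25.6% TGGGAA and 7.81% TGANTCA, so such letters are common.

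The enzymes that build O-glycan cores and branches gave 3 genes above the filter and no call. C1galt1, the core 1 galactosyltransferase, averaged 0.238 UMIs per 10000 with DBZ and 0.289 with DMSO, a change of -0.24 and a pooled ratio of -0.28 (-0.49 to -0.07). Its dedicated chaperone gene C1galt1c1 (Cosmc) had a change of 0.11, with a counting interval that included 0. Of the UMIs of this pair, C1galt1c1 took 58.5% with DBZ and 51.2% with DMSO. Gcnt2, the branching enzyme of the I blood group antigen, had the highest level of the group with DBZ. It averaged 0.414 with DBZ and 0.319 with DMSO, a change of 0.33 and a pooled ratio of 0.33 (0.15 to 0.51). With DMSO, C1galt1c1 was just above it at 0.321. Gcnt3, the mucin-type core 2 and core 4 enzyme, was rare, with 42 DBZ UMIs and 18 DMSO UMIs and a pooled ratio of 0.92 (0.09 to 1.80). The core 2 enzyme genes Gcnt1 and Gcnt4 had 15 to 16 UMIs with DBZ and 8 to 12 with DMSO, and their intervals included 0.

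None of the 5 B3gnt genes in the table, which add the GlcNAc that lengthens chains, reached 10% of cells. B3gnt7, a keratan sulfate chain enzyme, was the rare member whose interval lay below 0, with 10 UMIs in DBZ cells and 35 in DMSO cells, a pooled ratio of -2.11 (-3.29 to -1.07). The intervals of B3gnt2, B3gnt3 and B3gntl1 included 0. Over the rare genes with UMIs in both libraries, 6 of 22 had an interval above 0 and 1 of 22 below, against 24.9% and 11.1% of all 3573 such genes.

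Of 7 galactosyltransferase genes above the filter, the changes of 7 lay above 0 (63.2% of all genes), 6 had a counting interval above 0 (43.4% of all genes), and none reached 0.5. Of the 7, B4galt4 and B4galt5 passed the filter only through the DBZ library, in 13.6% and 11.3% of its cells, against 9.81% and 7.64% with DMSO. B4galt6 lay just below 0 under both alternative scalings and with pooled UMIs (-0.0036), and B4galt3 lay at -0.04 after thinning. Inside cluster 3, described below, B4galt1, B4galt3, B4galt4, B4galt5 and B4galt6 had changes between -0.32 and -0.74, with counting intervals that included 0. The pooled ratio of B4galt1 there was 0.02. B3galt6 (0.79) and B4galt7 (0.04) lay above 0 in that cluster, also with intervals that included 0. B4galt6, a lactosylceramide synthase, had the highest UMI level of the 59 genes, 0.744 per 10000 with DBZ and 0.725 with DMSO, a change of 0.03. Its close relative B4galt5, the main lactosylceramide synthase of mouse tissues, averaged 0.107 with DBZ and 0.0614 with DMSO, from 171 UMIs and 85 UMIs, a pooled ratio of 0.70 (0.32 to 1.10). B4galt7, which attaches the first galactose of the proteoglycan linker, averaged 0.149 with DBZ and 0.102 with DMSO, a change of 0.38 and a pooled ratio of 0.57 (0.25 to 0.90). B3galt6, which adds the next galactose of that linker, had a change of 0.31. B4galt4 averaged 0.118 with DBZ and 0.0853 with DMSO, a change of 0.31. B4galt1, the main galactosyltransferase of N-glycans, had a change of 0.21, and B4galt3 had 0.13. Among the rare genes, B4galt2 had 89 UMIs with DBZ and 31 with DMSO, a pooled ratio of 1.22 (0.61 to 1.86). B4galt2 shares 1417 exonic bases on the same strand with Ccdc24, which is also in the table, so reads there could come from either gene. B3galt4, the ganglioside GM1 synthase, had 88 UMIs with DBZ and 39 with DMSO, a pooled ratio of 0.87 (0.31 to 1.45).

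Of 6 N-glycan branching genes of the Mgat family above the filter, 5 had changes above 0 (63.2% of all genes) and an interval above 0 (43.4%), with a median of 0.33. Under both alternative scalings 5 of 6 lay above 0, and after thinning the median was 0.16. Directions differed between the clusters described below. In cluster 3, Mgat2 changed by 0.26 and the other 5 by -0.11 to -0.54. In the enteroendocrine-like cluster, Mgat5 changed by 0.32 and the other 5 by -0.14 to -0.58. In cluster 5, Mgat2 changed by -0.40 and the other 5 by 0.41 to 0.80. In the mitotic-like cluster all 6 changed by 0.05 to 0.75. Mgat1, which opens the path to hybrid and complex chains, had a change of 0.18. Mgat2, which starts the next antenna, averaged 0.552 UMIs per 10000 with DBZ and 0.424 with DMSO, a change of 0.35 and a pooled ratio of 0.37 (0.21 to 0.52). Mgat4b, the most expressed Mgat gene, averaged 0.668 with DBZ and 0.529 with DMSO, a change of 0.31 and a pooled ratio of 0.38 (0.24 to 0.52). Its paralogue Mgat4a, which makes the same branch, averaged 0.342 with DBZ and 0.390 with DMSO, a change of -0.16 whose interval included 0. Mgat5, which adds the branch that galectins bind best once it is extended, averaged 0.244 with DBZ and 0.170 with DMSO, a change of 0.42 and a pooled ratio of 0.40 (0.17 to 0.63). Mgat3, which adds the bisecting GlcNAc, averaged 0.129 with DBZ and 0.0914 with DMSO, a change of 0.34. Mgat4c was rare, with 54 UMIs with DBZ and 60 with DMSO.

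B4galt5 and Mgat5 have the highest changes among members with a promoter in the same RefSeq table (GRCm38.p6). Their windows are printed for comparison with those of Galnt6 and Galnt3, and neither contains letters of the motifs searched, so no base is in capitals.
B4galt5, chr2:167349129-167349428, minus strand: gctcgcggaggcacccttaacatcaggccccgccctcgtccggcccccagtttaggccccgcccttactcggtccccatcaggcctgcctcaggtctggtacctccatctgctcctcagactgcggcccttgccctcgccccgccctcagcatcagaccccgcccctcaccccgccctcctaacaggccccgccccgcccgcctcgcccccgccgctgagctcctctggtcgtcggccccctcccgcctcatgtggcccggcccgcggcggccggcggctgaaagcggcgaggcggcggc
Mgat5, chr1:127204736-127205035, plus strand: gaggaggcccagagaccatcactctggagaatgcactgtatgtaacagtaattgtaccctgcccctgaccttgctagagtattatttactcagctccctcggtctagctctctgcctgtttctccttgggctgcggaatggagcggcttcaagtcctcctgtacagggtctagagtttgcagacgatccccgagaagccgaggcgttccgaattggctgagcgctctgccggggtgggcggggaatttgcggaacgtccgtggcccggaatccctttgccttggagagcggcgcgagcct

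**Figure D3:**
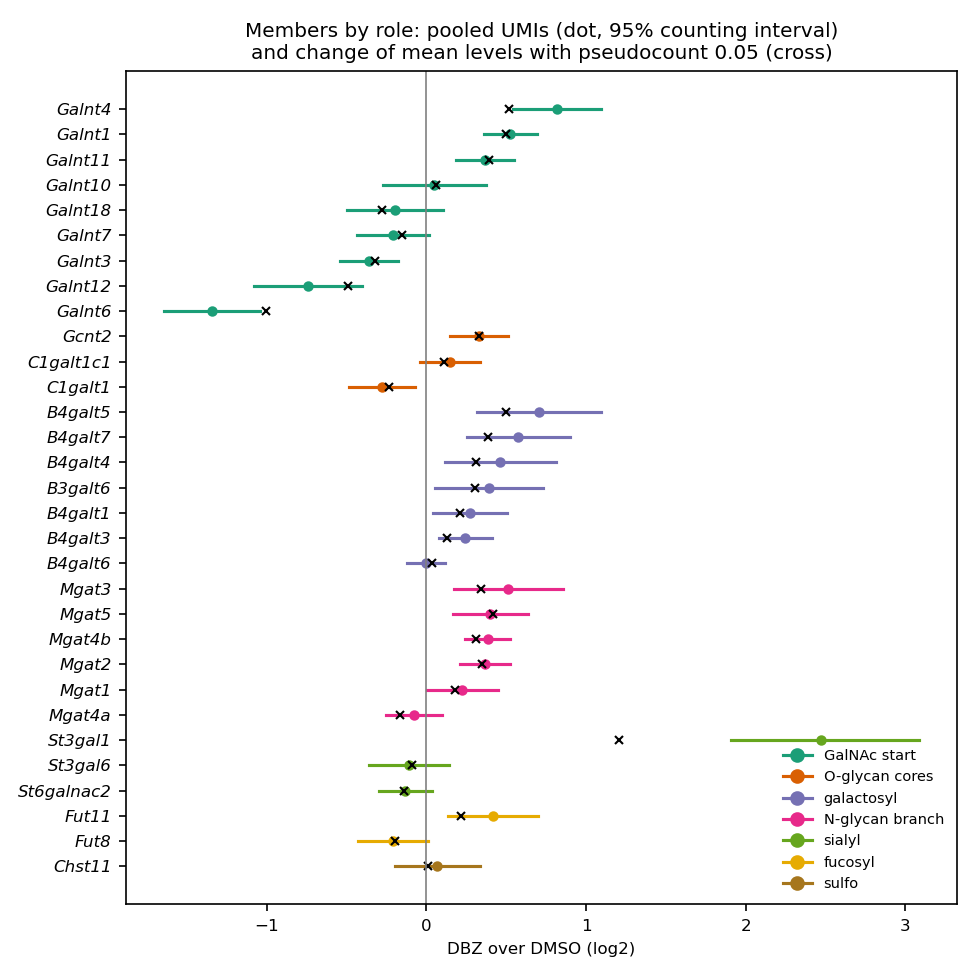
DBZ over DMSO on a log2 scale for the 31 genes, grouped and coloured by enzyme role. Dots are ratios of pooled UMIs with exact 95% counting intervals, and crosses are changes of mean levels after adding 0.05. The Galnt genes spread to both sides of 0, from Galnt4 at 0.82 to Galnt6 at -1.34, while 6 of 7 galactosyltransferase and 5 of 6 Mgat intervals lie above 0 and St3gal1 stands far to the right at 2.47.

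Among the 3 sialyltransferase genes above the filter, the change of St3gal1 lay above 0 and the others below. St3gal1 (chromosome 15, 67102875 to 67176830, minus strand) encodes an enzyme that caps core 1 O-glycans with sialic acid, and it passed the filter only through the DBZ library. It averaged 0.122 UMIs per 10000 with DBZ and 0.0247 with DMSO, a change of 1.21. Pooled counts were 199 UMIs in DBZ cells and 29 in DMSO cells, a log2 ratio of 2.47 (1.91 to 3.09). Cells with a UMI made up 12.2% with DBZ and 2.58% with DMSO, and 4.19% and 0.826% after thinning. St3gal1 took 29.4% of St3gal UMIs with DBZ (26.0 to 33.0) and 7.80% with DMSO (5.28 to 11.004). The remaining large share was that of St3gal6, which sialylates lactosamine chains, 42.5% with DBZ and 67.5% with DMSO.

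St3gal6 itself averaged 0.170 with DBZ and 0.185 with DMSO, a change of -0.09. St6galnac2, which adds sialic acid to the first sugar of O-glycans and had the highest sialyltransferase level, averaged 0.418 with DBZ and 0.465 with DMSO, a change of -0.14. Both intervals included 0. St3gal6 shares 1603 exonic bases with Dcbld2 on the opposite strand. Rare sialyltransferase genes with an interval above 0 were St3gal3, with 110 UMIs with DBZ and 51 with DMSO (pooled ratio 0.80), and St3gal4, with 40 and 18 in the same order (0.85). St3gal5, the GM3 synthase gene, had 28 UMIs with DBZ and 23 with DMSO. St6gal1, which caps N-glycans, had 27 with DBZ and 12 with DMSO, and its interval included 0, as did those of St6galnac4 and St6galnac6.

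Fucosyltransferases gave 2 genes above the filter. Fut8, which adds the core fucose of N-glycans, averaged 0.221 with DBZ and 0.260 with DMSO, a change of -0.20 whose interval included 0. Fut11 had a change of 0.22 and a pooled ratio of 0.42 (0.14 to 0.70). Fut2, the secretor enzyme that fucosylates intestinal mucins, was rare, with 24 UMIs with DBZ and 12 with DMSO. Fut4, a Lewis x enzyme, had 16 with DBZ and 7 with DMSO. Fut1, the related H antigen enzyme, had 9 UMIs in 9 DMSO cells and was listed at 0 throughout the DBZ library, as were 2.11% of all genes.

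The sulfotransferase with the highest level, Chst11, which sulfates chondroitin, averaged 0.161 UMIs per 10000 with DBZ and 0.160 with DMSO, a change of 0.01 that turned negative under both alternative scalings. Chst14, the dermatan sulfotransferase gene, had 64 UMIs with DBZ and 26 with DMSO, a pooled ratio of 0.99 (0.32 to 1.71). The intervals of Chst2, Chst12 and Chst15 included 0.

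Galnt9, St6galnac5, Chst13, St3gal2 and B3gnt9 were listed at 0 in every DMSO cell, where 5.41% of all genes in the table were. No fold is given for these. Galnt9 had 23 UMIs in 20 DBZ cells, and 19 of those UMIs came from 16 cells of the enteroendocrine-like cluster described next. St6galnac5, a ganglioside sialyltransferase gene, had 18 UMIs in 13 DBZ cells, 17 of them in 12 enteroendocrine-like cells. Chst13, a chondroitin sulfotransferase gene, had 30 UMIs in 23 DBZ cells, with 13 in the enteroendocrine-like cluster and 10 in cluster 5. St3gal2 and B3gnt9 had 12 and 11 UMIs, at most 1 per cell.

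Cells were grouped into 11 clusters with all 59 genes left out of the clustering. By markers in their top 10 genes, cluster 7 was mitotic-like, cluster 8 enteroendocrine-like and cluster 10 Paneth-like, and the others stay unnamed. Most clusters came largely from 1 library, so a cluster and a treatment often cannot be told apart. Cells of clusters 0, 2 and 6 numbered 8, 1 and 7 with DBZ and 176, 195 and 142 with DMSO. Clusters 1, 5, 9 and 10 had 238, 266, 146 and 77 cells with DBZ and 21, 41, 12 and 10 with DMSO. Levels below are in the cluster first and in all other cells after it. Members were compared where they had UMIs in 10% or more of the cluster's cells or of all other cells. Leaders such as Mgat4c, Gcnt3, B3gnt3 and B4galt2 were under 10% of cells in both libraries. They entered only through the clusters where they are named, so these had to differ.

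The enteroendocrine-like cluster, with 210 DBZ cells and 44 DMSO cells, was led among these genes by B4galt5, Mgat3 and St3gal6. B4galt5 averaged 0.195 UMIs per 10000 there and 0.0730 elsewhere, a pooled log2 ratio of 1.22 (0.72 to 1.69). Mgat3 averaged 0.236 there and 0.0966 elsewhere, a pooled ratio of 1.24 (0.79 to 1.66). St3gal6 averaged 0.282 there and 0.163 elsewhere. Mgat4a was lower, at 0.171 there and 0.388 elsewhere, a pooled ratio of -1.02 (-1.48 to -0.60). Of 30 members in 10% of either set of cells, 7 were higher by 0.5, where 16.6% of all genes were, and 3 were lower, where 15.9% were. Galnt9 UMIs were seen in 6.30% of enteroendocrine-like cells and 0.205% of other cells, at median depths of 8532.5 UMIs in this cluster and 10901 and 11183 in the whole libraries.

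That cluster also held defensin-rich cells. Of its 254 cells, 105 had at least 100 UMIs of Defa22 and Defa24 per 10000, 93 from DBZ and 12 from DMSO. B4galt5 averaged 0.131 in the defensin-rich cells and 0.240 in the remaining enteroendocrine-like cells, and Mgat3 averaged 0.158 and 0.290 in the same order. Galnt9 had 13 of its 23 UMIs in the defensin-rich cells, and St6galnac5 had 13 of 18.

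In the Paneth-like cluster, with 77 DBZ cells and 10 DMSO cells, Galnt7, Gcnt3 and St3gal1 led. Galnt7 averaged 0.475 UMIs per 10000 there and 0.189 elsewhere, a pooled ratio of 1.12 (0.74 to 1.48). Gcnt3 averaged 0.0871 there and 0.0144 elsewhere, and St3gal1 0.198 there and 0.0747 elsewhere. Lower levels were more frequent: 10 of 32 members were lower by 0.5, while 43.7% of all genes were, in cells where Defa22 and Defa24 UMIs together averaged 1008 per 10000. Galnt11 was the lowest but for Galnt18, at -1.09 on the log2 scale.

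The mitotic-like cluster, with 124 DBZ cells and 159 DMSO cells and a median of 19951 UMIs per cell, was led by Mgat4c. This gene averaged 0.0853 there and 0.0185 elsewhere, a pooled ratio of 2.00 (1.44 to 2.55). Galnt7 averaged 0.300 there and 0.185 elsewhere, and B4galt6 0.923 there and 0.708 elsewhere. Galnt18 was lowest, at 0.0300 there and 0.171 elsewhere, a pooled ratio of -2.62 (-3.47 to -1.88). In this cluster 2 of 32 members were higher by 0.5, against 14% of all genes, and 3 were lower, against 14.1%.

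Among unnamed clusters, St3gal1 was highest in cluster 5 (led by Npy, Ptn and Spock2). It averaged 0.257 UMIs per 10000 there and 0.0509 elsewhere, a pooled ratio of 2.42 (2.03 to 2.81), and 95 of its 228 UMIs came from those 307 cells. B4galt2 and B4galt4 followed there, at 0.101 and 0.155 against 0.0363 and 0.0947 elsewhere. Cluster 4 (led by Sprr1a, Reg3g and Hmox1), with 30 DBZ cells and 91 DMSO cells, had the highest levels of Galnt3 and Galnt7 of all 11. Galnt3 averaged 0.808 there and 0.290 elsewhere, Galnt7 0.538 there and 0.180 elsewhere, and B3gnt3, which extends core 1 chains, 0.0807 there and 0.00915 elsewhere. In cluster 4 St6galnac2 was lowest, at -1.39 on the log2 scale.

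Cluster 9 (led by Nts, Lcn2 and Ly6g6c) had the highest summed level, 11.3 UMIs per 10000. There 14 of 33 members were higher by 0.5, while 22% of all genes were, with Gcnt2, Galnt3 and B4galt2 at 0.86, 0.84 and 0.83 on the log2 scale. Galnt18 varied widely between clusters, at 1.30 in cluster 6, 0.99 in cluster 3 and 0.66 in cluster 2, and at -1.03 in cluster 9, -1.37 in cluster 0 and -1.47 in the mitotic-like cluster. Cluster 6 was led by Galnt18, Fut8 (0.83) and Galnt6 (0.72), and cluster 0 by Galnt12 (0.89), Galnt6 (0.63) and St6galnac2 (0.57). In cluster 2, St6galnac2 (0.50) and Mgat4a (0.36) followed Galnt18, and in cluster 3 Galnt6 (0.77) and Fut11 (0.35) did. Cluster 1 was led by Galnt4 (0.44), Galnt18 (0.35) and B3galt6 (0.33), none of which reached 0.5.

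Read against all genes, these counts stood as follows. Members higher by 0.5 numbered 3 in cluster 0 (7.52% of all genes), 0 in cluster 1 (2.27%), 1 in cluster 2 (6%), 2 in cluster 3 (1.86%), 7 in cluster 4 (10.1%), 3 in cluster 5 (16.5%), 3 in cluster 6 (5.36%) and 3 in the Paneth-like cluster (2.74%). Members lower by 0.5 numbered 4 in cluster 0 (17.7%), 6 in cluster 1 (7.73%), 5 in cluster 2 (13%), 2 in cluster 3 (9.53%), 4 in cluster 4 (21.4%), 3 in cluster 5 (10.2%), 5 in cluster 6 (20.4%) and 2 in cluster 9 (7.92%). From 29 to 33 members were compared in each cluster.

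**Figure D4:**
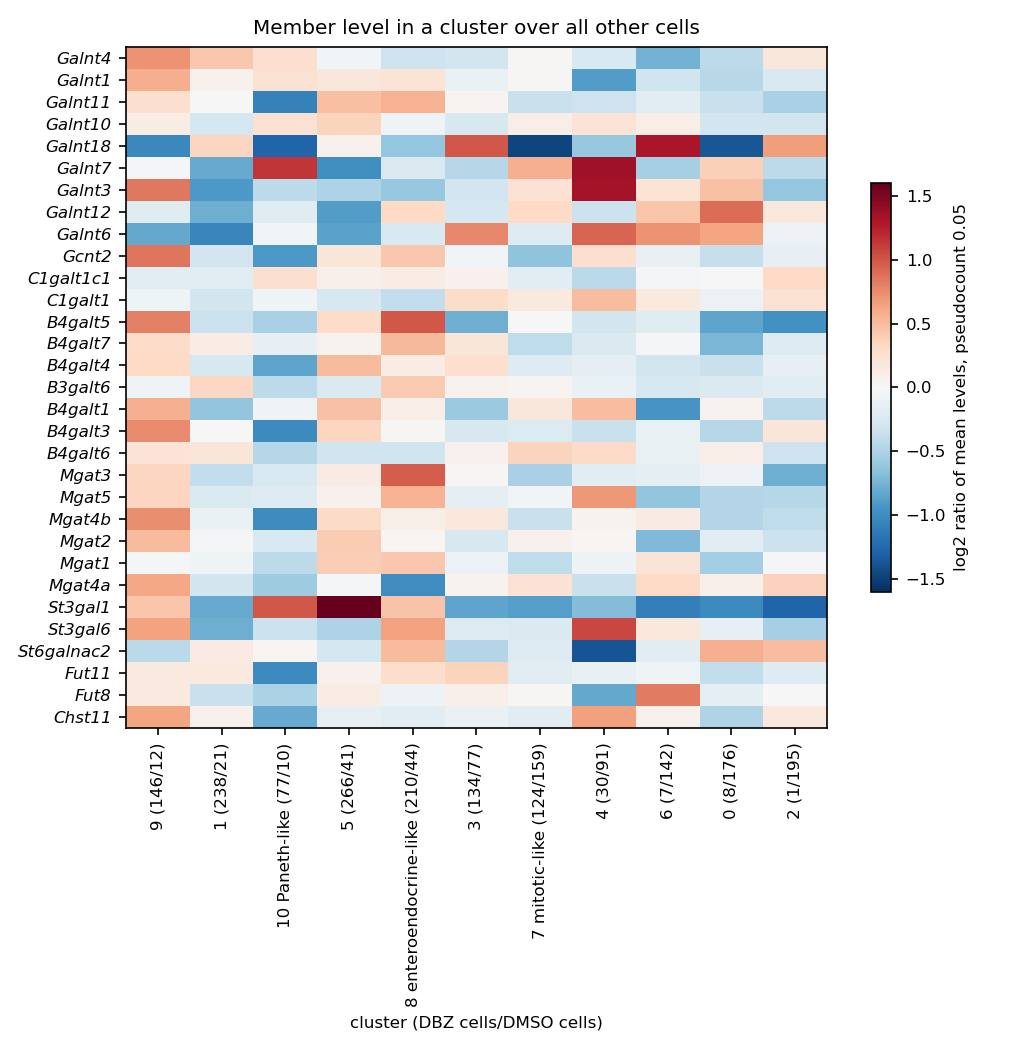
Log2 ratio of the mean level in each of 11 clusters over all other cells, after adding 0.05, for the 31 genes in rows grouped by role. Columns give the cluster with its DBZ and DMSO cells, from mostly DBZ on the left to mostly DMSO on the right. Red marks higher and blue lower levels, with St3gal1 at 1.61 in cluster 5, Galnt7 at 1.35 in cluster 4 and Galnt18 at -1.47 in the mitotic-like cluster.

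Inside the 4 clusters with at least 40 cells of each library, the treatments were compared among cells of the same cluster. Galnt6 was lower with DBZ in all 4. It averaged 0.180 UMIs per 10000 with DBZ and 0.392 with DMSO in cluster 3, 0.0448 and 0.188 in cluster 5, 0.0402 and 0.182 in the mitotic-like cluster, and 0.0979 and 0.199 in the enteroendocrine-like cluster, DBZ first each time. The counting interval lay below 0 in clusters 3, 5 and 7, with pooled ratios of -0.87, -2.15 and -1.75, and included 0 in cluster 8 (-1.18, from 19 UMIs and 9 UMIs). Cluster 5 gave 13 DBZ UMIs and 8 DMSO UMIs, and cluster 7 gave 13 and 64.

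Inside these clusters the change of St3gal1 ran from 0.03 to 0.92, against 1.21 between whole libraries. Its pooled ratio ran from -0.30 in cluster 3, from 4 UMIs with DBZ and 3 with DMSO, to 4.25 in the mitotic-like cluster. Between whole libraries the pooled ratio was 2.47. In cluster 5 St3gal1 averaged 0.269 with DBZ and 0.185 with DMSO, a change of 0.44 whose pooled interval (-0.30 to 2.16) included 0. Its change was 0.32 in the enteroendocrine-like cluster and 0.03 in cluster 3, from 3 DMSO UMIs in each. In the mitotic-like cluster it had 13 UMIs in DBZ cells and 1 in DMSO cells, a pooled ratio of 4.25 (1.51 to 9.65). Cluster 5, where the gene was highest, held 21.4% of the cells with DBZ and 4.24% with DMSO. The part of these shares in the difference between libraries was not tested.

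Galnt4 was above 0 in all 4, at 0.25 in cluster 3, 0.33 in cluster 5, 0.53 in the mitotic-like and 0.53 in the enteroendocrine-like cluster, and its interval lay above 0 in the mitotic-like cluster. Fut8 was lower with DBZ in cluster 3, at 0.143 with DBZ and 0.449 with DMSO, a pooled ratio of -1.47 (-2.24 to -0.72), while its interval included 0 in the other clusters. Over the 31 genes, the median change was -0.27 in cluster 3, 0.21 in cluster 5, 0.23 in the mitotic-like and 0.04 in the enteroendocrine-like cluster. Medians of all genes were 0.04, 0.04, 0.11 and -0.01 in the same order.

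Counts past 0.5 differed between these clusters. In cluster 3, 1 member was higher and 7 lower, with 12.4% and 8.95% of all genes. Cluster 5 had 6 higher and 2 lower, with 19.2% and 11.3% of all genes. In the mitotic-like cluster 7 were higher and 1 lower, with 14.5% and 4.85%, and in the enteroendocrine-like cluster 5 were higher and 5 lower, with 14.4% and 14%.

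**Figure D5:**
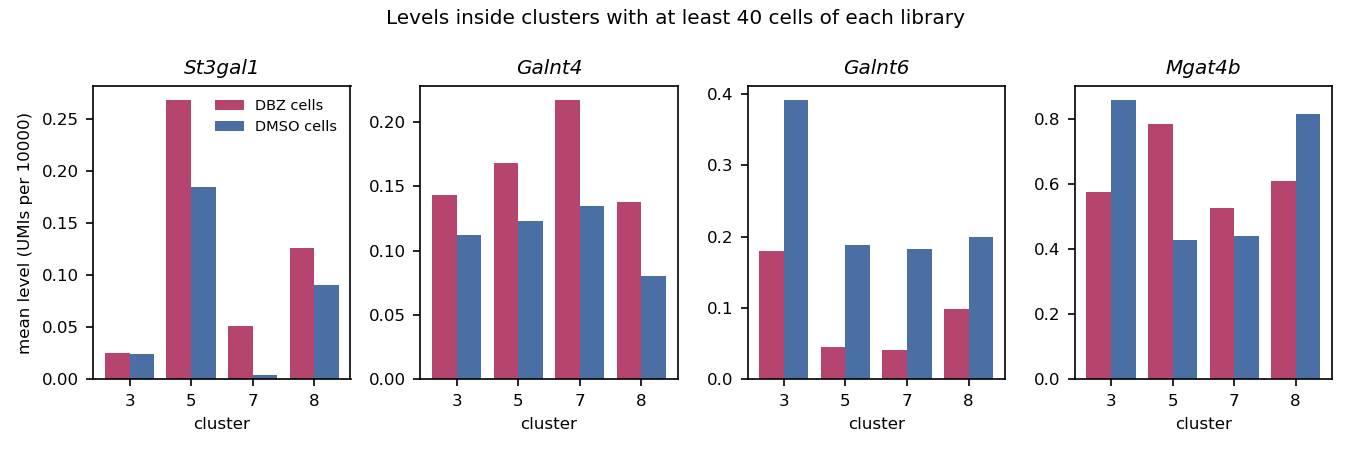
Mean level, in UMIs per 10000, of St3gal1, Galnt4, Galnt6 and Mgat4b in DBZ cells (left bar) and DMSO cells (right bar) of clusters 3, 5, 7 (mitotic-like) and 8 (enteroendocrine-like). Each bar is a mean over cells of 1 library, so no error bar is drawn. Galnt6 is lower with DBZ in each cluster, Galnt4 is higher, and Mgat4b is lower in clusters 3 and 8 and higher in 5 and 7.

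Goblet cells are the main mucin producers, and no cluster was goblet-like. Within the DBZ library, cells thinned to 5000 UMIs were therefore set apart by Tff3, a goblet cell peptide, with 274 cells at 2 or more UMIs and 631 cells at none. This split is a range of a count and not a cell type. After thinning, 49.2% of DBZ cells and 6.92% of DMSO cells had a Tff3 UMI, and in DBZ cells of the mitotic-like cluster 41.9% had 1 or more and 17.7% had 2 or more. The part of free RNA in these UMIs was not tested. Of 17 members in 10% of either set, Galnt7 was higher by 0.5 (2.91% of all genes) and Mgat4a was lower (8.87% of all genes). Galnt7 averaged 0.299 UMIs per thinned cell at 2 or more Tff3 UMIs and 0.139 at none, a pooled ratio of 1.10 (0.45 to 1.75). Mgat4a averaged 0.204 at 2 or more and 0.349 at none. The median of the 17 was -0.12, and that of all genes was -0.14. Paneth-like cells were 26.6% of the cells at 2 or more and 0.317% of those at none, enteroendocrine-like cells were 22.3% and 14.4% in the same order, and their part in the result was not tested. Tff3 in the Paneth-like cluster averaged 143 UMIs per 10000.

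Genes that serve these enzymes were described in the same way, and their counts stand beside the same shares of all genes, 63.2% above 0, 12.7% higher by 0.5 and 6.4% lower. Of the mucins and mucin-like proteins that carry the chains, 9 of 22 were in the table and 4 had UMIs in 10% or more of a library's cells, with none called. Cd24a, a heavily glycosylated surface protein, averaged 10.6 UMIs per 10000 with DBZ and 7.69 with DMSO (change 0.47). Cd164, a sialomucin, had 0.31 and Muc6, a secreted gland mucin, 0.29, while the transmembrane mucin Muc13 had -0.28. Muc2, the main goblet cell mucin, named here after its values were seen, had 17 UMIs with DBZ, in 12 cells, and was listed at 0 with DMSO.

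Nucleotide sugar enzymes had 13 of 29 changes above 0, 1 higher by 0.5 and 2 lower, with a median of -0.04, where 63.2% of all genes lay above 0. The higher gene was Gfpt1, the entry enzyme of hexosamine synthesis, at 0.393 with DBZ and 0.223 with DMSO (change 0.70). Nagk, a GlcNAc salvage kinase gene, had 0.47. Galk1, the galactokinase gene, averaged 0.757 with DBZ and 1.18 with DMSO (-0.61), and Renbp had -0.70. Ugdh, the UDP-glucuronate enzyme, had the highest level with DBZ, 1.13 against 0.933 with DMSO, and a change of 0.27. Cmas had the highest level with DMSO, 1.23 against 1.07 with DBZ, and a change of -0.20.

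Genes listed as Golgi sugar and sulfate carriers were Slc35 family genes with Slc26a2. Whether each product acts in the Golgi was not tested. They had 12 of 14 changes above 0, with 2 higher by 0.5, none lower and a median of 0.21. Shares of all genes were 63.2%, 12.7% and 6.4%, and their median was 0.11. Slc35c1, which carries GDP-fucose into the Golgi, averaged 0.720 with DBZ and 0.264 with DMSO, a change of 1.30 and a pooled ratio of 1.46 (1.29 to 1.64). Slc35b1 had 0.63, while Slc35b3 (-0.09) and Slc26a2 (-0.03), which carry the sulfate donor and sulfate, had intervals that included 0.

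Other glycosyltransferases outside the symbol rule had 26 of 33 changes above 0, with 2 higher by 0.5, 1 lower and a median of 0.23, against the same shares and median of all genes. Chpf2 (0.56) and Alg11 (0.55) were the highest, and B4galnt2 (-0.61), the Sda antigen enzyme, and B3galnt2 (-0.21) the lowest. Chpf2 passed the filter only through DBZ, in 13.5% of cells against 7.75% with DMSO. B4galnt2 passed only through DMSO, in 14.5% against 7.82% with DBZ, so both genes had to differ. Ogt, the intracellular O-GlcNAc transferase, had the highest level, 1.71 with DBZ and 1.23 with DMSO. Genes listed under N-glycan trimming had 12 of 14 above 0, 3 higher by 0.5, none lower and a median of 0.23. That list also holds genes that do not encode trimming enzymes, among them Calr, Canx, Uggt1, Lman1 and Mcfd2. Calr (0.57) and Ganab (0.56) led the list, and Lman1 (-0.12) and Man1a2 (-0.07) came last. Golgi structure genes had 22 of 23 above 0, none called and a median of 0.20, from Gbf1 (0.50) and Uso1 (0.46) to Cog1 (0.02) and Golga7 (-0.02), with Arf1 (0.03) the most expressed. Of all genes, 63.2% lay above 0 and 12.7% were higher by 0.5.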

How the data were processed

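Per the labels' protocols, cells were captured on a Chromium chip with a target of 3000. Tools used were Cell Ranger 2.1.1 and Seurat with build mm10, per the submitters' processing notes. The authors deposited natural log values of 1 plus the UMIs per 10000 of a cell. Each cell's levels summed to 10000, and 100% of 7553435 values above 0 were whole UMIs within 0.01. Columns begin with CTRL or GSI, read as DMSO and DBZ from the meaning of these names. Genes listed at 0 in a whole library numbered 282 with DBZ and 723 with DMSO, and a gene with UMIs had them in at least 4 DBZ or 2 DMSO cells, so a listed 0 may come from a filter.

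Changes used a pseudocount of 0.05 and genes in 10% of cells. No p-value was made with 1 library per group, and cells are not replicates. Intervals of pooled ratios are exact conditional 95% intervals, and those of shares are Clopper-Pearson intervals. Levels and shares were also computed after thinning to 5000 UMIs, which left out 0 cells. Clusters came from scanpy 1.11.5 and igraph 0.11.9, with 2000 variable genes, 30 components, 15 neighbours and Leiden resolution 1. Clusters were named from 3 or more markers of 1 class among their top 10 genes, counting genes in 25% of their cells. Scrublet marked 2 DBZ cells and 6 DMSO cells as doublets, 0.161% and 0.620%, and these were kept. Gene models are GENCODE M21 and promoters RefSeq GRCm38.p6. St6galnac2 has 2 overlapping models. Code was tested on simulated data.

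Genes named with both levels are the 12 highest and 12 lowest changes, the most expressed of each role and those listed at 0. Of each pathway list, the 2 highest, 2 lowest and most expressed are named, and of each cluster the 3 highest members, and others were added from their values. The genes, lists and rules were chosen with earlier results of these data known.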

Additional observations from a re-analysis of the deposited data

Results flagged for a closer look

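Mgat4b, the most expressed Mgat gene, went opposite ways in 2 clusters. In cluster 5, with 266 DBZ cells and 41 DMSO cells, its pooled log2 ratio was 1.03 (0.32 to 1.83), from 250 UMIs with DBZ and 17 with DMSO. In cluster 3, with 134 DBZ cells and 77 DMSO cells, the ratio was -0.60 (-1.05 to -0.16), from 92 UMIs with DBZ and 85 with DMSO. Both intervals cover counting error only, and the difference between the clusters was not tested. Its pooled ratio was 0.28 (-0.08 to 0.63) in the mitotic-like cluster and -0.44 (-0.98 to 0.14) in the enteroendocrine-like cluster.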

How the results depend on the processing

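No paired analysis was possible because each treatment has 1 library. Under the 11 settings that can alter the change of a single gene, 332 of 341 values of the 31 genes stayed within counting error and 9 moved past it, and no called value changed sign. Of the main counts and medians, 57 stayed and 40 moved. This tally leaves out the medians of the enzyme roles, some of which also moved. The sialyltransferase median went from -0.09 to 0.17 with genes in 5% of cells. The Galnt median went from -0.15 to 0.06 with genes in 10% of the cells of both libraries. The fucosyltransferase median went from 0.01 to 0.23 after thinning. The median change of the enzyme genes, 0.18 as reported, was 0.12 with a pseudocount of 0.2, 0.24 with pooled UMIs, 0.10 with cells thinned to 5000 UMIs, 0.21 with genes in 5% of cells, 0.10 when scaled without defensin, mitochondrial and ribosomal protein genes, 0.069 after subtracting the median of all genes (0.11), and 0.23 without the Paneth-like and enteroendocrine-like clusters. The 2 genes called higher became 4 with a pseudocount of 0.01, with every gene of the table, or without the 5 highest cells of each gene, 6 with pooled UMIs and 7 after thinning. They became 1 with a pseudocount of 0.2, with either scaling, at a threshold of 1, or, added after seeing the data, with genes in 10% of the cells of both libraries, where none was lower (0). Of all genes, 17.4% were higher with a pseudocount of 0.01, 4.92% with 0.2, 11.2% with every gene, 13.9% without the highest cells, and 10.2% and 7.84% under the scalings. The gene called lower became 2 with a pseudocount of 0.01, pooled UMIs, thinning, either scaling, without the 2 secretory clusters, and, as an alternative added after seeing the data, without the mitotic-like cluster. Among pathway lists, a pseudocount of 0.01 gave a median of 0.27 for other glycosyltransferases and 0.24 for Golgi structure, and leaving out the 2 secretory clusters gave 0.41 for mucin acceptors and -0.11 for nucleotide sugars. In the enteroendocrine-like cluster, the 7 higher and 3 lower members became 5 lower with pooled UMIs, 6 lower in the DMSO library alone, and, against cells outside the cluster, 4 higher and 8 lower in its defensin-rich cells and 11 higher and 1 lower in its remaining cells, a split added after seeing the data. The Paneth-like cluster gave 1 higher member in the DBZ library alone, and 9 higher and 18 lower in the DMSO library alone, from 10 cells, and the mitotic-like cluster gave 5 lower with pooled UMIs. The Tff3 median became -0.015 at 4 or more UMIs. The cause was not tested. St3gal1 ran between 0.52 (pseudocount 0.2) and 2.47 (pooled UMIs), and Galnt6 between -0.56 and -1.34 for the same settings. Without the Paneth-like and enteroendocrine-like clusters St3gal1 stood at 1.29 and Galnt6 at -1.06. Depth limits the rare genes most, since those with under 20 UMIs in each library have intervals over 1 log2 unit wide.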
